A study of Chromochloris zofingiensis with 6 samples.

Results

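Acetyl-CoA carboxylase (ACCase) was represented by 6 genes in the expression tables of Chromochloris zofingiensis, a unicellular green alga that stores triacylglycerol and astaxanthin. They were taken by transcript identifier: biotin carboxylase (BC, Cz13g10110.t1), both biotin carboxyl carrier proteins (BCCP, Cz03g28270.t1 and Cz06g20040.t1), carboxyltransferase (CT) alpha (Cz02g12030.t1) and beta (Cz02g17060.t1), and the single-chain cytosolic enzyme (Cz19g10190.t1), written without the suffix from here on. These are 6 of the 15037 genes listed in at least 1 library, and all 6 were above the limit for testing, as were 13886 genes in total. The study sequenced poly-A RNA of strain ATCC30412 from 3 cultures at 0 h and 3 cultures after 6 h in medium with 200 mM NaCl. Both groups were grown in bubbled columns with CO2-enriched air under continuous light, and the 6 h cells had been spun down and placed in new medium with salt. Cells held for the same time without salt are not among the libraries, so that salt, time, handling and new medium cannot be told apart.

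ACCase makes malonyl-CoA from acetyl-CoA and bicarbonate, and malonyl-CoA is the donor of carbon for growing fatty acid chains. In the plastid of green algae and most plants the enzyme is assembled from separate proteins, as in bacteria. BC uses ATP to carboxylate a biotin that is bound to BCCP, and CT alpha and beta then pass the carboxyl group to acetyl-CoA. The cytosolic enzyme carries all of these functions on a single chain, and in plants its malonyl-CoA serves fatty acid elongation and other products outside the plastid.

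Levels are in FPKM, which divides the fragments of a gene by its length and by the library's mapped fragments, so levels may be set side by side between genes. The FPKM of a gene is a share of its library, so a change in the total amount of RNA per cell is not seen in it. Library totals were between 924660 and 1135980 FPKM, with 14233 to 14697 genes listed. The tables hold no counts, so how many fragments a given FPKM rests on is unknown, although the read totals that the study lists differ little between the libraries. The 6 h cultures varied more than the 0 h cultures, with a residual SD over all genes tested of 0.289 to 0.630 on the log2 scale against 0.165 to 0.195, and replicates 1 and 3 lay on opposite sides. Log2 fold changes are of FPKM after median-of-ratios scaling with 0.1 added, tested with limma and adjusted over all genes tested (Benjamini-Hochberg). Calls needed an adjusted p below 0.05 together with a change of 1 or more, up or down, on the log2 scale.

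All 5 genes of the plastid enzyme were called higher at 6 h and the cytosolic gene was called lower. Over all genes tested, 20.0% were called higher and 26.6% lower, 46.6% in all (2772 and 3692 genes, against 1925 and 4466 for unscaled FPKM, 1624 and 4738 for TPM, and 1925 and 4421 after upper-quartile scaling). In each plastid gene the lowest culture at 6 h was above the highest at 0 h, as in 27.2% of genes tested, and in the cytosolic gene the order was the opposite, as in 46.1%.

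BC, the ATP-using subunit, had 115, 104 and 108 FPKM in 0 h replicates 1, 2 and 3 and 1459.9, 1881 and 2056 FPKM in the 6 h replicates, the order used for all genes. The groups were far apart, and at 6 h replicate 1 was the lowest. The mean went from 108.7 ± 5.67 to 1799 ± 306 FPKM (SD, n = 3), 16.5 times the level at 0 h. The log2 fold change was 4.34 with a 95% interval of 3.98 to 4.71 (limma, Benjamini-Hochberg adjusted p = 9.16e-06). By mean FPKM BC moved from place 1371 to place 55 of the 15037 genes listed.

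The BCCP genes encode the small protein that carries the biotin between the active sites. Cz03g28270 had 211, 176 and 176 FPKM at 0 h and 1755, 2144 and 2175 FPKM at 6 h. Cz06g20040 had 155, 154 and 164.96 FPKM at 0 h and 2682, 2779.6 and 2409 FPKM at 6 h. Cz06g20040 was thus the lower of the pair in every culture at 0 h and the higher in every culture at 6 h. The ratio of means was 10.8 for Cz03g28270 and 16.6 for Cz06g20040. Cz03g28270 changed by 3.74 on the log2 scale (95% interval 3.38 to 4.10, limma, Benjamini-Hochberg adjusted p = 1.15e-05). Cz06g20040 changed by 4.36 (95% interval 4.07 to 4.65, limma, Benjamini-Hochberg adjusted p = 6.29e-06), with the smallest spread of the 6 genes at 6 h, a coefficient of variation of 7.32%. Within the pair, Cz06g20040 held 42.4, 46.7 and 48.4% of the FPKM before salt and 60.4, 56.5 and 52.6% at 6 h. Both genes are annotated as BCCP in the lipid table of the study. The functional annotation of the study gives a BCCP orthology for Cz03g28270 only and lists the function of Cz06g20040 as unknown.

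Among the plastid subunits CT alpha had the smallest rise and the widest spread at 6 h, whereas CT beta was close to Cz03g28270 in its rise and to BC in its spread. CT alpha (Cz02g12030) had 97.2, 92.05 and 87.1 FPKM at 0 h and 464, 697 and 941 FPKM at 6 h, so that the highest culture at 6 h was 2.03 times the lowest. CT beta (Cz02g17060) had 103, 97.85 and 104 FPKM at 0 h and 923, 1161 and 1275 FPKM at 6 h, a span of 1.38 times. Both genes were lowest in 6 h replicate 1 and highest in 6 h replicate 3. CT alpha changed by 3.18 on the log2 scale (95% interval 2.57 to 3.78, limma, Benjamini-Hochberg adjusted p = 9.70e-05), and its mean at 6 h was 7.60 times that at 0 h. CT beta changed by 3.76 (95% interval 3.42 to 4.09, limma, Benjamini-Hochberg adjusted p = 1.03e-05), with a ratio of means of 11.03. The model of Cz02g12030 is annotated with an RNA helicase orthology and a ubiquitin transferase function beside CT alpha. Its predicted location is listed as other, while the 4 further plastid genes are listed as chloroplastic. The paper's text nevertheless counts Cz02g12030 among the subunits targeted to the chloroplast. Whether the model of Cz02g12030 joins neighbouring genes was not tested.

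The cytosolic gene Cz19g10190 had 114, 107 and 94.2 FPKM at 0 h and 8.12, 11 and 19.3 FPKM at 6 h. The groups did not overlap, and the spread at 6 h was the widest of the 6 genes, with a coefficient of variation of 45.5%. Cz19g10190 fell by 2.81 on the log2 scale (95% interval -3.56 to -2.06, limma, Benjamini-Hochberg adjusted p = 3.88e-04), its mean at 0 h being 8.21 times that at 6 h. It went from place 1426 to place 9097 of 15037 by mean FPKM. A fall of this size was not rare in these libraries, since Cz19g10190 had place 1595 among the 13886 genes tested when ordered from the largest fall. The plastid genes, ordered from the largest rise, had places 90 (Cz06g20040), 91 (Cz13g10110), 158 (Cz02g17060), 161 (Cz03g28270) and 269 (Cz02g12030).

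**Figure D1:**
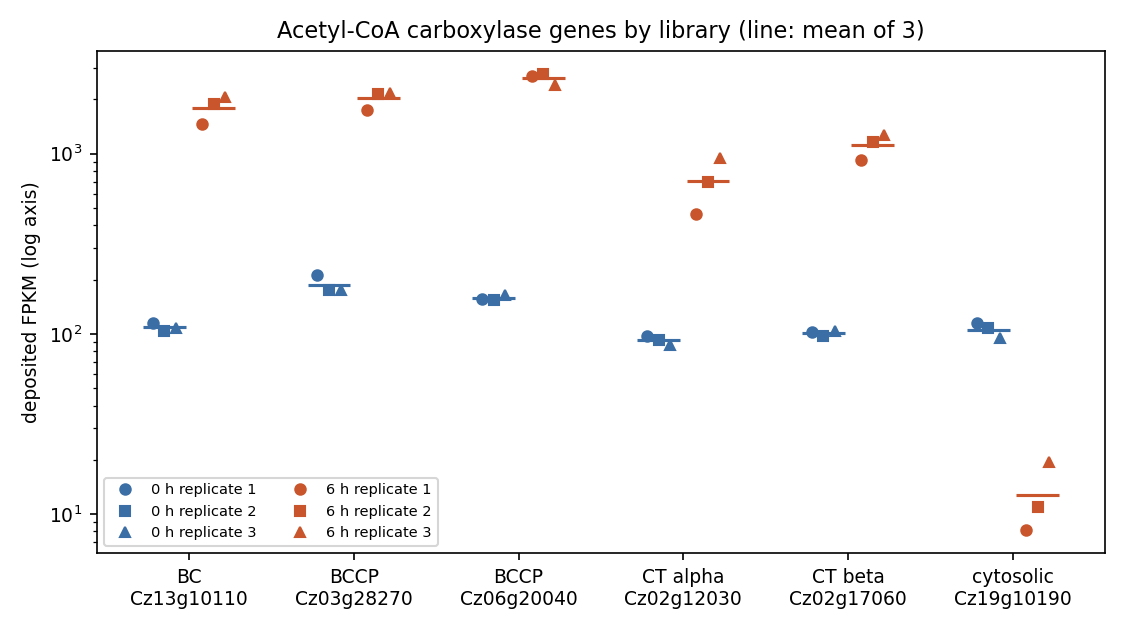
Deposited FPKM of the 6 ACCase genes on a log axis, with 1 point for each library (blue at 0 h, red at 6 h, symbol by replicate number) and a line at the mean of 3. The 5 plastid genes lie between 87.1 and 211 FPKM at 0 h and between 464 and 2779.6 FPKM at 6 h, whereas the cytosolic gene goes from between 94.2 and 114 down to between 8.12 and 19.3 FPKM.

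The calls of the 6 genes held under each of the 18 alternatives tried, and the lowest and highest log2 fold changes are given in the closing section. The gene for beta-actin (Cz05g19150), which the methods name as the reference for quantitative PCR, was itself called higher, from 344, 336 and 371 FPKM at 0 h to 934, 815 and 560.3 FPKM at 6 h (log2 fold change 1.41, limma, Benjamini-Hochberg adjusted p = 0.00153). Taken as ratios to Cz05g19150 within each library, the log2 fold changes were 2.93 for BC, 2.33 for Cz03g28270, 2.95 for Cz06g20040, 1.76 for CT alpha, 2.35 for CT beta and -4.22 for the cytosolic gene. The choice of this gene as a scale was made after the data were seen.

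The order of the levels at 0 h was Cz03g28270, Cz06g20040, BC, the cytosolic gene, CT beta and CT alpha. BC and the cytosolic gene overlapped between cultures, and so did the cytosolic gene and CT beta. The other neighbours did not overlap. At 0 h the cytosolic gene thus stood between BC and CT beta without a gap. The order at 6 h was Cz06g20040, Cz03g28270, BC, CT beta, CT alpha and the cytosolic gene. Cz03g28270 and BC overlapped, as did CT beta and CT alpha, although the gene named earlier was above the later one in each of the 3 libraries.

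The 5 plastid genes together had 681, 624 and 639 FPKM at 0 h and 7283, 8663 and 8856 FPKM at 6 h. This was 0.0654 to 0.0737% of all listed FPKM at 0 h and 0.641 to 0.946% at 6 h. Divided by the cytosolic gene of the same library, the sum gave ratios of 5.96, 5.82 and 6.79 before salt and of 897, 788 and 458 after it. These groups did not overlap, and the library with the lowest ratio at 6 h, replicate 3, was the one with the most cytosolic transcript. The log2 of this ratio rose by 6.79 (exact two-sided permutation p = 0.1, the smallest that 3 against 3 libraries allow). The plastid genes were higher and the cytosolic gene lower in every 6 h library than in any at 0 h. The lack of overlap and this p follow from that and are not further results. A ratio within a library does not depend on the scaling between libraries except through the 0.1 added.

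The make-up of the plastid pool differed between the times. BC held 16.6 to 16.9% of the summed FPKM at 0 h and 20.05 to 23.2% at 6 h, and Cz06g20040 22.8 to 25.8% and 27.2 to 36.8%. CT alpha held 13.6 to 14.8% at 0 h and 6.37 to 10.6% at 6 h, CT beta 15.1 to 16.3% and 12.7 to 14.4%, and Cz03g28270 27.5 to 30.98% and 24.1 to 24.7%. None of these 5 ranges overlapped between the times, with an exact permutation p (two-sided) of 0.1 for each, the least that 3 against 3 libraries can give. The 5 shares make up a whole in each library, so they are not 5 separate results. Lack of overlap was also usual: the within-library ratios of 74.4% of all pairs of genes tested did not overlap between the times. The genes of the step that carboxylates biotin (BC and both BCCP genes) had 2.41, 2.28 and 2.35 times the FPKM of the genes of the step that transfers the carboxyl group (CT alpha and beta) at 0 h. At 6 h the ratio was 4.25, 3.66 and 2.997 (exact two-sided permutation p = 0.1). The ratio of the summed BCCP genes to BC was 3.16 to 3.19 in the cultures at 0 h and 2.23 to 3.04 at 6 h. CT beta exceeded CT alpha 1.05, 1.06 and 1.19 times in the 0 h cultures, and 1.99, 1.67 and 1.35 times in the 6 h cultures. The shares and the ratios with CT alpha in them carry the open question about its gene model.

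**Figure D2:**
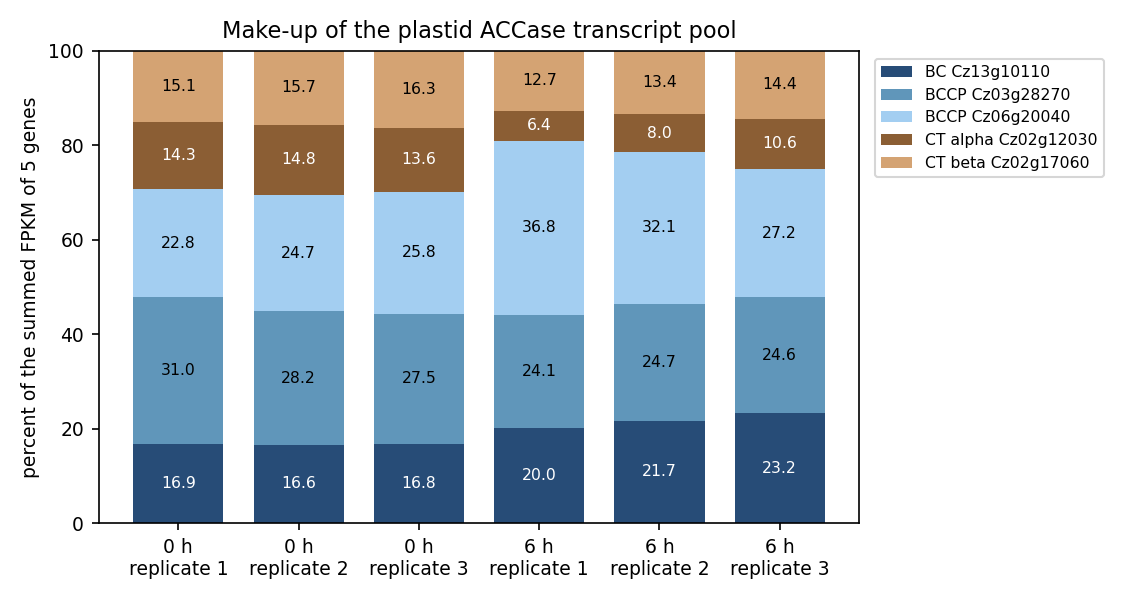
Share of each plastid subunit gene in the summed FPKM of the 5 genes, in percent, 1 bar per library. The CT alpha share is between 13.6 and 14.8% at 0 h and between 6.37 and 10.6% at 6 h, and the share of Cz06g20040 is largest, at 36.8%, in 6 h replicate 1.

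Whether members changed by different amounts was tested for the 15 pairs, with limma on the log2 ratio of every gene tested to a member of the pair in the same library. The adjusted p (Benjamini-Hochberg over all genes) given for a pair is the larger of those with either member as reference. It is not corrected for the number of pairs. Where most genes differ from the reference, as here, the adjustment changes p little, so these values are close to unadjusted ones. All 5 pairs with the cytosolic gene differed, by 5.99 (CT alpha) to 7.17 (Cz06g20040) on the log2 scale, with adjusted p between 2.24e-05 and 2.87e-05. The members of these pairs were called in opposite directions, so these 5 results repeat the calls of the single genes. Of the 10 pairs of plastid genes 6 differed at an adjusted p under 0.05. Against that, the share of all other genes tested that differed was 98.8% with BC as reference, 98.2% with Cz03g28270, 98.9% with Cz06g20040, 95.4% with CT alpha, 98.1% with CT beta and 86.4% with the cytosolic gene. The ratios of 8 of the 10 plastid pairs did not overlap between the times, whereas 74.4% of all pairs of genes tested did not overlap.

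BC rose more than CT alpha: the log2 ratio of BC to CT alpha went from 0.24 to 1.405, a change of 1.17 (95% interval 0.51 to 1.83, limma, Benjamini-Hochberg adjusted p = 0.00457). This pair was the only one of the 6 to keep its call under each of the 12 alternatives tried (adjusted p up to 0.0487, with the replicate block). None of these alternatives addresses whether the CT alpha model joins neighbouring genes, which bears on every pair with CT alpha. BC also rose more than CT beta, by 0.58 (limma, Benjamini-Hochberg adjusted p = 0.00925), and more than Cz03g28270, by 0.60 (limma, Benjamini-Hochberg adjusted p = 0.0148). Cz06g20040 rose more than CT alpha by 1.18 (limma, Benjamini-Hochberg adjusted p = 0.0164), more than Cz03g28270 by 0.62 (limma, Benjamini-Hochberg adjusted p = 0.0272) and more than CT beta by 0.60 (limma, Benjamini-Hochberg adjusted p = 0.0307). These 5 calls were lost when single libraries were left out, with little change in the size of the difference. BC to CT beta lost its call without 0 h replicate 2 (0.58) or 3 (0.56). BC to Cz03g28270 lost it without 0 h replicate 1 (0.56), 2 (0.61) or 3 (0.64) or 6 h replicate 2 (0.61). Cz06g20040 to CT alpha lost it without 0 h replicate 1 (1.13) or 2 (1.16) or 6 h replicate 2 (1.16). For Cz03g28270 to Cz06g20040 the call went without 0 h replicate 1 (-0.52), 2 (-0.64) or 3 (-0.69) or 6 h replicate 2 (-0.62). For Cz06g20040 to CT beta it went without 0 h replicate 1 (0.58), 2 (0.61) or 3 (0.61) or 6 h replicate 2 (0.59).

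The other 4 pairs of plastid genes did not pass. BC and Cz06g20040 differed in their change by -0.02 (95% interval -0.57 to 0.54), and Cz03g28270 and CT beta by -0.02 (95% interval -0.45 to 0.41), and any difference within these intervals remains possible. Cz03g28270 and CT alpha differed by 0.56 (95% interval -0.17 to 1.29), and CT alpha and CT beta by -0.58 (95% interval -1.23 to 0.07). Both of the latter pass without 6 h replicate 3 (0.75 with limma, Benjamini-Hochberg adjusted p = 0.0191, and -0.72 with adjusted p = 0.0153), the library in which CT alpha was highest.

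**Figure D3:**
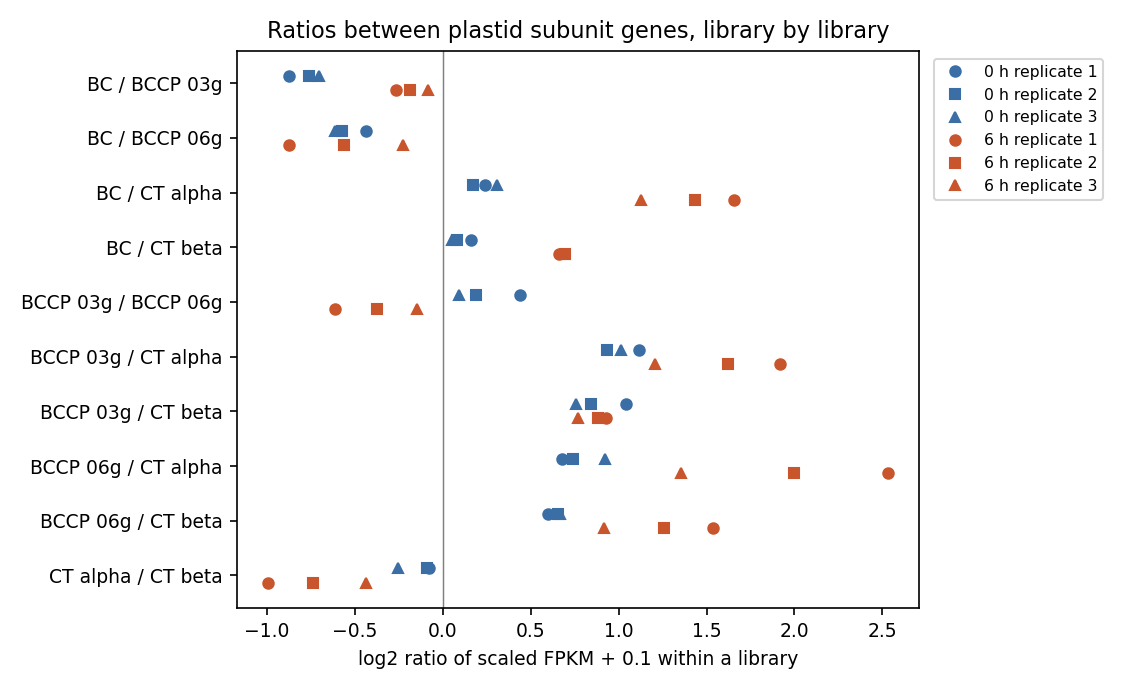
Log2 ratio of scaled FPKM (with 0.1 added) for the 10 pairs of plastid subunit genes, 1 point per library, blue at 0 h and red at 6 h (BCCP 03g is Cz03g28270, BCCP 06g is Cz06g20040). The ratio of BC to CT alpha has a mean of 0.24 at 0 h and 1.405 at 6 h, and only BC to Cz06g20040 and Cz03g28270 to CT beta overlap between the times.

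The cultures at 6 h did not rank alike for all members. Of the 6 genes 5 were lowest in 6 h replicate 1 and highest in 6 h replicate 3, among them the cytosolic gene, which moved the other way between the times. Cz06g20040 was lowest in 6 h replicate 3. Over all genes tested 42.7% were lowest in 6 h replicate 1 and 48.1% in 6 h replicate 3, and 41.0% were highest in replicate 1 and 40.6% in replicate 3. The share that was both lowest in replicate 1 and highest in replicate 3 was not counted. Among the 12 called genes of the remaining fatty acid synthesis list (described next), 8 were lowest in 6 h replicate 3 and 4 in replicate 1. As a difference from the mean of the 6 h libraries in log2 FPKM, CT alpha had -0.54, 0.05 and 0.48 in replicates 1, 2 and 3 and the cytosolic gene -0.56, -0.13 and 0.69, whereas Cz06g20040 had 0.03, 0.09 and -0.12.

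**Figure D4:**
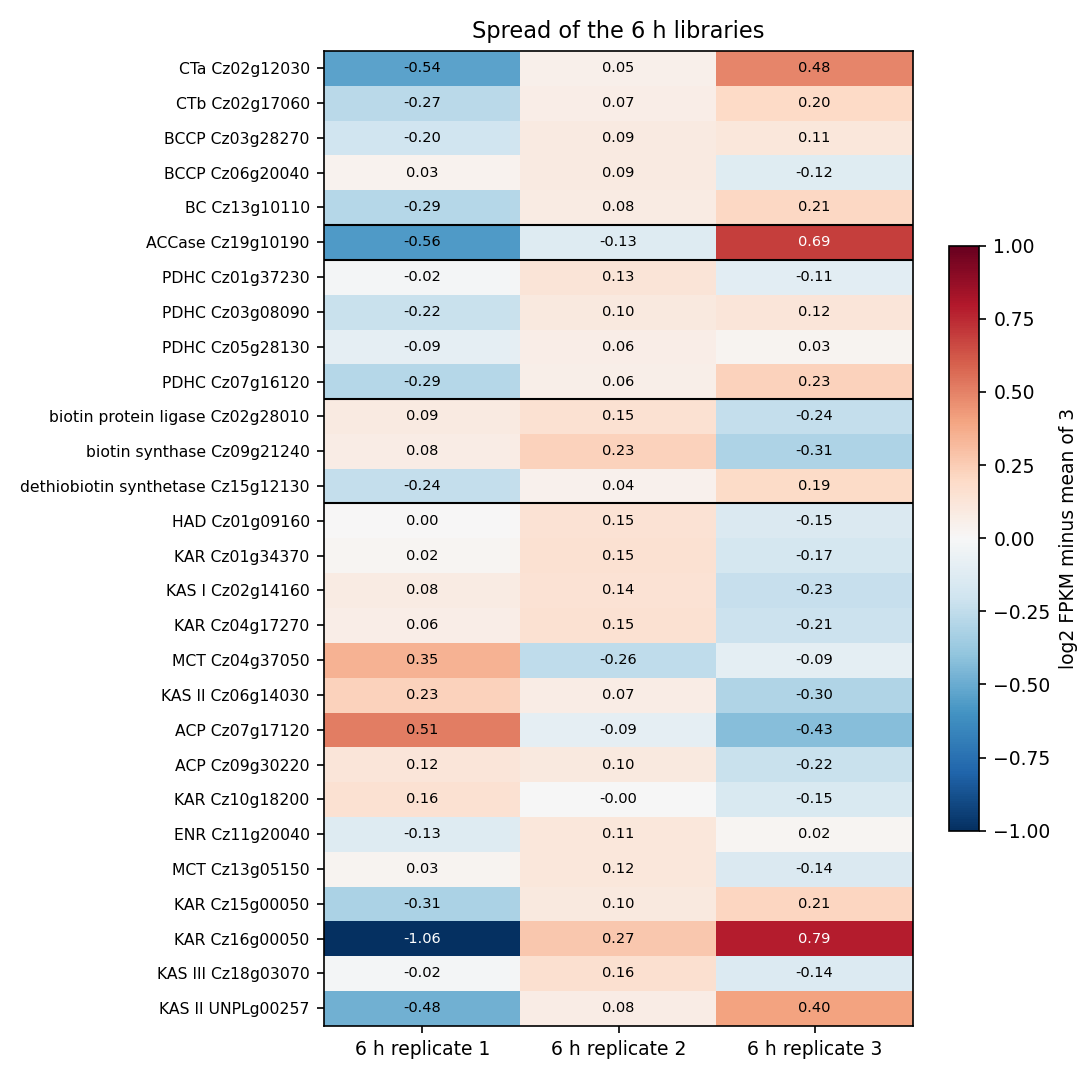
Log2 FPKM in each 6 h library minus the mean of the 3, for the ACCase genes, the chloroplastic pyruvate dehydrogenase genes (PDHC), the biotin genes and the other fatty acid synthesis genes, in blocks from top to bottom, with the colour scale ending at 1 in either direction. Values go from -0.54 to 0.48 for CT alpha and from -0.12 to 0.09 for Cz06g20040.

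Malonyl-CoA from the plastid enzyme is handed to acyl carrier protein (ACP) by malonyl-CoA:ACP transacylase (MCT) and then enters rounds of condensation, reduction, dehydration and reduction. Of the 15 genes other than ACCase in the fatty acid synthesis list of the study, 12 were called higher and 0 lower in limma, and the other 3 had an adjusted p under 0.05 but a smaller change. At an unadjusted p under 0.05, with no limit on size, 14 were higher and 1 was lower. Of all genes tested, 20.0% were called higher and 26.6% lower, and 35.3% were higher and 35.7% lower at an unadjusted p under 0.05. The median log2 fold change was 3.87, beside 3.76 for the 5 plastid ACCase genes and -0.04 for all genes tested. The highest was KAS I (Cz02g14160), the condensing enzyme for most of the chain, with 5.80 (limma, Benjamini-Hochberg adjusted p = 6.29e-06). The lowest was an MCT gene with little transcript, Cz04g37050, with -0.94 (limma, Benjamini-Hochberg adjusted p = 0.0245), from 1.24, 1.18 and 1.48 FPKM at 0 h to 0.64, 0.42 and 0.47 FPKM at 6 h. The list is not confined to the plastid, and neither is its median. Of its ketoacyl-ACP reductase genes the paper places only Cz01g34370 (log2 fold change 5.19) in the chloroplast, and the others had 0.95 to 3.60. The paper places the KAS II gene Cz06g14030 (1.42) in the mitochondrion.

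Acetyl-CoA, the substrate of ACCase, has several sources in the cell, of which the chloroplastic pyruvate dehydrogenase complex acts in the same compartment as the plastid ACCase. Of 21 genes in the study's list of acyl-CoA sources 20 were tested, of which 10 were called higher and 5 lower (median log2 fold change 1.001), beside 20.0 and 26.6% of all genes tested, so that the share called lower was near that of all genes. All 4 chloroplastic PDHC genes were called higher: E1 alpha (Cz03g08090) by 3.89, E1 beta (Cz01g37230) by 4.31, E2 (Cz05g28130) by 4.41 and E3 (Cz07g16120) by 3.47, all at a Benjamini-Hochberg adjusted p from limma of 6.29e-06 to 1.37e-05. Their means were 132 to 156 FPKM at 0 h and 1408 to 2267 FPKM at 6 h, within the span of the ACCase subunit genes at each time. The 3 mitochondrial PDHC genes, Cz18g13050, Cz07g25130 and Cz10g25060, were below the size limit with log2 fold changes of 0.08, 0.47 and 0.44 (limma, Benjamini-Hochberg adjusted p = 0.617, 0.00898 and 0.0135), and their deposited FPKM overlapped between the times. The highest gene of the list was a candidate acetate permease (Cz01g32260, 7.02, from 0.21, 0.53 and 0.33 FPKM to 34.6, 59.1 and 50.6 FPKM) and the lowest an aldehyde dehydrogenase (Cz03g20090, -2.86), an enzyme that can oxidise acetaldehyde to acetate.

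BCCP works only with biotin attached. The annotation of called genes names a biotin synthase, a gene for the preceding steps of biotin formation and a biotin protein ligase, the enzyme that attaches biotin to its acceptor proteins. These were found in a table that holds genes called in these samples and begins with the largest rises, so that their direction is given by that choice and their values are a description. Biotin synthase (Cz09g21240) had 69.0, 75.9 and 76.3 FPKM at 0 h and 815, 905 and 624 FPKM at 6 h, 10.6 times the mean at 0 h. Biotin protein ligase (Cz02g28010) had 15.3, 14.1 and 15.2 FPKM at 0 h and 134, 139.8 and 106 FPKM at 6 h, 8.53 times. The gene for dethiobiotin synthetase and the aminotransferase before it (Cz15g12130) had 30.1, 29.8 and 29.4 FPKM at 0 h and 62.0, 75.2 and 83.6 FPKM at 6 h, 2.47 times. All 3 genes were lower in each culture at 0 h than in any at 6 h, as were 27.2% of genes tested. For these 3 genes that order follows largely from how they were found.

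Other enzymes that use biotin as a carrier of carboxyl groups did not share a direction. Pyruvate carboxylase (Cz04g02090), which makes oxaloacetate, had 44.2, 40.9 and 36.3 FPKM at 0 h and 8.98, 11.7 and 21.1 FPKM at 6 h (log2 fold change -1.31, limma, Benjamini-Hochberg adjusted p = 0.0102). The gene for urea carboxylase and allophanate hydrolase (Cz07g16190), which break down urea, had 31.2, 31.04 and 32.9 FPKM at 0 h and 48.1, 58.2 and 63.0 FPKM at 6 h (log2 fold change 1.13, limma, Benjamini-Hochberg adjusted p = 3.56e-04). At 6 h Cz04g02090 was lowest in replicate 1 and highest in replicate 3, as the cytosolic ACCase gene was. Of all genes tested, 42.7% were lowest in 6 h replicate 1 and 40.6% were highest in 6 h replicate 3.

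Carbonic anhydrases interconvert CO2 and bicarbonate, the second substrate of ACCase. Of 10 genes 2 were called higher and 4 lower in limma, with a median log2 fold change of 0.08, against 20.0 and 26.6% of all genes tested. The beta type gene that the study's table places in the stroma, UNPLg00122, went from 29.8, 28.6 and 35.8 FPKM to 103, 84.5 and 76.2 FPKM (log2 fold change 1.79, limma, Benjamini-Hochberg adjusted p = 1.67e-04). The highest was Cz11g04240 with 2.26 and the lowest Cz10g04110 with -3.65, both of the beta type (limma, Benjamini-Hochberg adjusted p = 3.19e-04 and 3.85e-05).

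**Figure D5:**
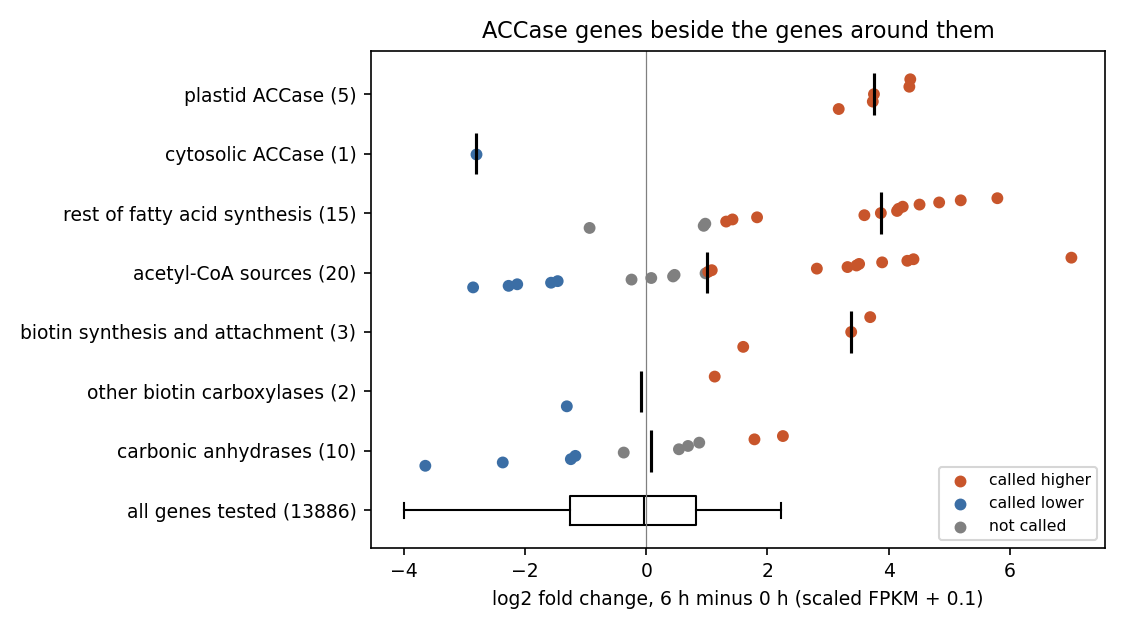
Log2 fold change (6 h minus 0 h, scaled FPKM with 0.1 added) of the ACCase genes and of the genes around them, 1 point per gene tested, with red for called higher, blue for called lower, grey for not called and a black line at the median of each list. The box for all 13886 genes tested spans the quartiles with whiskers at the 5th and 95th percentiles, and the 5 plastid ACCase genes (3.18 to 4.36) lie beyond its upper whisker.

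The profiles of all other genes tested were compared with the mean profile of the 5 plastid subunits, as the root mean square difference over the 6 libraries of log2 values set to 0 at the 0 h mean. The nearest of 13880 genes was E1 alpha of the chloroplastic PDHC (Cz03g08090), with a difference of 0.05. The members themselves had 0.09 (Cz02g17060) to 0.52 (Cz02g12030). Each member is part of the mean it was compared with, which makes its difference smaller. The 0.05 is the smallest of 13880 values and the members were not picked in this way, so it does not rank E1 alpha against them. The next were Cz07g11020, annotated as a leishmanolysin-like peptidase, Cz01g08270, Cz04g14250, annotated as an expansin, and Cz05g12170, with 0.11 to 0.14. Within the lists the places were far apart. The remaining fatty acid synthesis genes had places from 12 (KAS III, Cz18g03070, which starts the chain) to 9687 (Cz04g37050), with KAS I at 836. The biotin genes had places 45 (biotin synthase, Cz09g21240), 97 (biotin protein ligase) and 1267 (Cz15g12130). The genes nearest to the cytosolic Cz19g10190 were Cz16g09230, Cz19g06210, Cz12g14090, Cz09g14030 and Cz03g09020, with differences of 0.03 to 0.09, and none of these 5 is named in the tables used here. With 6 libraries in 2 groups such likeness rests mainly on the size of the change between the times.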

How the data were processed

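The labels give 3 libraries at 0 h and 3 at 6 h, with 1 library per culture. The authors deposited FPKM values with 2 decimals for genes above 0, without scaling between libraries. The methods name TopHat and Cufflinks, whereas the submitters' processing notes name HISAT, Bowtie2 and RSEM. The genome build is not given in the sources used here. Nothing was mapped or counted again, and a gene not listed was taken as 0.

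Libraries were divided by median-of-ratios factors (0.884 to 1.13), and genes averaging 1 FPKM or more at 0 h or 6 h were tested with limma 3.58.1 in R 4.3.3 (trend, two-sided, time as the only term) on log2 values with 0.1 added. Files were read with jsonlite 2.0.0. The limits for a call (adjusted p of 0.05, fold change of 2) and the filter are those of the study. The procedure was run on simulated data with the same spread at both times and independent noise for each gene. The wider spread at 6 h was not simulated, so that run cannot show how it affects the calls. Single values per library were compared by exact two-sided permutation tests.

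The members and lists were chosen with earlier results of these data known. Lists and annotations are those of the study's gene tables, partly held here. Named were the members, the biotin genes, the other biotin carboxylases, beta-actin, the chloroplastic PDHC genes, UNPLg00122, the highest and lowest gene of each longer list, and the 5 nearest profiles to the plastid mean and to Cz19g10190; further genes were named after their values were seen. No member shares its FPKM in all libraries with another gene. The alternatives were other scalings, pseudocounts and filters, library weights, no trend, the replicate number as a block, the size limit inside the test (treat) or absent, and leaving out each library.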

Additional observations from a re-analysis of the deposited data

How the results depend on the processing

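Each of the 6 genes kept its direction and its call under each of the 18 alternatives, with log2 fold changes of 2.93 to 4.47 for BC, 2.33 to 3.84 for Cz03g28270, 2.95 to 4.43 for Cz06g20040, 1.76 to 3.43 for CT alpha, 2.35 to 3.88 for CT beta and -4.22 to -2.54 for the cytosolic gene; the values farthest from the main ones were those against beta-actin, which was chosen after seeing the data. The median log2 fold change of all genes tested was -0.04, and -0.34 for unscaled FPKM, -0.47 for TPM and -0.34 after upper-quartile scaling. The plastid sum rose by 3.98 (3.54 on TPM).

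Same-numbered cultures did not deviate together (correlations of -0.30, -0.11 and -0.49), and 0 of 3 correlated best with their own number. With the replicate number as a block, all 6 genes kept their calls, and 5 of the pair differences missed the threshold: 0.60 for BC to Cz03g28270 (limma, Benjamini-Hochberg adjusted p = 0.131), 0.58 for BC to CT beta (0.110), -0.62 for Cz03g28270 to Cz06g20040 (0.153), 1.18 for Cz06g20040 to CT alpha (0.0646) and 0.60 for Cz06g20040 to CT beta (0.104).

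With 1 library left out, the change in the ratio ranged from 0.55 to 0.65 for BC to Cz03g28270, from 0.56 to 0.62 for BC to CT beta, from -0.73 to -0.50 for Cz03g28270 to Cz06g20040, from 0.90 to 1.48 for Cz06g20040 to CT alpha and from 0.45 to 0.76 for Cz06g20040 to CT beta, from 0.39 to 0.75 for Cz03g28270 to CT alpha and from -0.72 to -0.45 for CT alpha to CT beta. BC to Cz06g20040 changed sign (-0.18 without 6 h replicate 3, 0.04 without 0 h replicate 1 and 0.15 without 6 h replicate 1), as did Cz03g28270 to CT beta (-0.081 without 0 h replicate 3, 0.061 without 0 h replicate 1 and 0.026 without 6 h replicate 3). The cause was not tested.

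In the remaining fatty acid synthesis list 1 gene, Cz04g37050, was called lower for unscaled FPKM, TPM, upper-quartile scaling, a pseudocount of 0.01, weighted libraries, no size limit and without 6 h replicate 1, against 0 otherwise (0 to 1 over the libraries left out). With the limit inside the test (treat) 3 acetyl-CoA source genes and 2 carbonic anhydrase genes were called lower, and without a size limit 5 carbonic anhydrase genes were called higher. Over all genes tested the 2772 called higher became 1624 on TPM, 1384 with treat and 4665 without a size limit, and the 3692 called lower became 2417 with treat. FPKM carry no counts, so counting error could not be set beside the spread of the cultures.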
